A study of Sus scrofa with 8 samples.

Results

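Translation factor genes were examined in left ventricular tissue of 4 mutant and 4 WT pigs. The members were the rows of the deposited table whose symbol begins with EIF or EEF and that reached at least 10 normalized counts in at least 4 of the 8 libraries. This left 56 of 58 such rows, among 11660 genes that met the same minimum. A normalized count is a gene's read count divided by a size factor for its library. EEF1AKMT4 and EIF4E1B did not reach the minimum. Of the 56 members, 55 reached it in every library and none reached it in the libraries of 1 group alone. EEF1A1, EEF1G, EIF3C, EIF3K, EIF2S3, EIF2B1 and EIF5A are not analysed here.

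In the mutant group 3 pigs carry the label KCNH2 mutation, and the label of mutant replicate 4 reads KCNH3 mutation, a gene that the design text of the series does not mention. The gene KCNH2 encodes the pore of the rapid delayed rectifier potassium channel of ventricular myocytes. The 4 WT pigs carried no edit according to their genotype label, and no treatment is given for either group. The labels give no sex, age, founder clone or batch, and the tissue is whole ventricular wall rather than sorted cells, so fewer cells of a type and less RNA per cell cannot be told apart. Tests therefore rest on the variation among 8 libraries that the labels number as separate pigs.

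Initiation factors bring the small ribosomal subunit, the initiator tRNA and the capped mRNA together and select the start codon. Elongation factors then deliver each aminoacyl-tRNA and move the ribosome along the message. In the heart these steps set the rate at which contractile protein is replaced, and they are controlled mainly through phosphorylation of eIF2, of the eIF4E-binding proteins downstream of mTORC1, and of eEF2. Those phosphorylations are not visible in mRNA levels. In human cells the mRNAs of eEF1A, the eEF1B subunits, eEF2, eIF4B and the e, f and h subunits of eIF3 begin with a terminal oligopyrimidine (TOP) tract, the same feature that marks ribosomal protein mRNAs.

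Library depth was 15.9 to 22.4 M reads in mutant and 16.8 to 21.6 M reads in WT libraries (M is the prefix mega). The 13 genes of the mitochondrial genome took 15.9% to 27.5% of reads in mutant libraries and 31.7% to 87.9% in WT libraries, so that WT replicates 3 and 4 kept only 2.53 M and 7.53 M other reads while the remaining 6 libraries kept 11.5 M to 16.2 M. KCNH2 had 798, 1762, 1751 and 1839 normalized counts in mutant replicates 1 to 4 and 989, 559, 1909 and 148 in WT replicates 1 to 4, and such a count says nothing on the edited sequence. The summed level of 6 cardiomyocyte markers was 616558 to 683807 normalized counts in mutant and 410690 to 529446 in WT libraries, without overlap, with 4 of the 6 higher and 2 lower in mutant libraries. None of those 6 was at 0. The summed level of 5 erythroid markers was 2529 to 3013 normalized counts in mutant libraries, against 17949, 31848, 29121 and 49.7 in WT replicates 1 to 4. The 3 measured neutrophil markers summed to 14.0 to 319 in mutant and 63.1 to 2198 in WT libraries, the highest being WT replicate 2. S100A8 of this list and HBM, SLC4A1 and AHSP of the erythroid list were at 0 in at least 1 library. Sums of fibroblast, endothelial, smooth muscle, macrophage and T cell markers overlapped between groups. The part of these shares and cell markers in the results below was not tested.

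Translation factor mRNAs lay mostly on the low side in mutant ventricles, but no single gene passed the test. Of 56 members 42 had a lower fitted level in mutant libraries and 14 a higher one, whereas 43.1% of all 11660 genes were lower. The median log2 difference, mutant minus WT, was -0.28 over the members and 0.12 over all genes tested. In limma with Benjamini-Hochberg adjustment over all genes, 0 members passed an adjusted p of 0.05, as did 0% of all genes (smallest adjusted p among members 0.243, largest 0.980). At an unadjusted p under 0.05 there were 11 members lower (19.6%, against 6.8% of all genes) and 2 higher (3.57%, against 7.06%). All 4 mutant libraries lay below all 4 WT libraries in 7 members, or 12.5% against 5.22% of all genes. They lay above in 1 member, or 1.79% against 6.17%. On recovered whole reads, edgeR's quasi-likelihood test called 0 members (0% of all genes) with 13 at an unadjusted p under 0.05 (14.9% of all genes). DESeq2 called 3 members lower and none higher, against 3.54% and 1.58% of the genes it tested. That DESeq2 fit used the size factors behind the deposited counts, so it largely repeats the authors' own test and is no independent result. The authors' deposited table calls 3 members, all lower, which is 5.36% of the members against 3.23% of the genes with an adjusted p there. These 3 are EIF5B, EEF1D and EIF3F. The authors' deposited table calls no member higher, against 1.32% of genes.

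**Figure D1:**
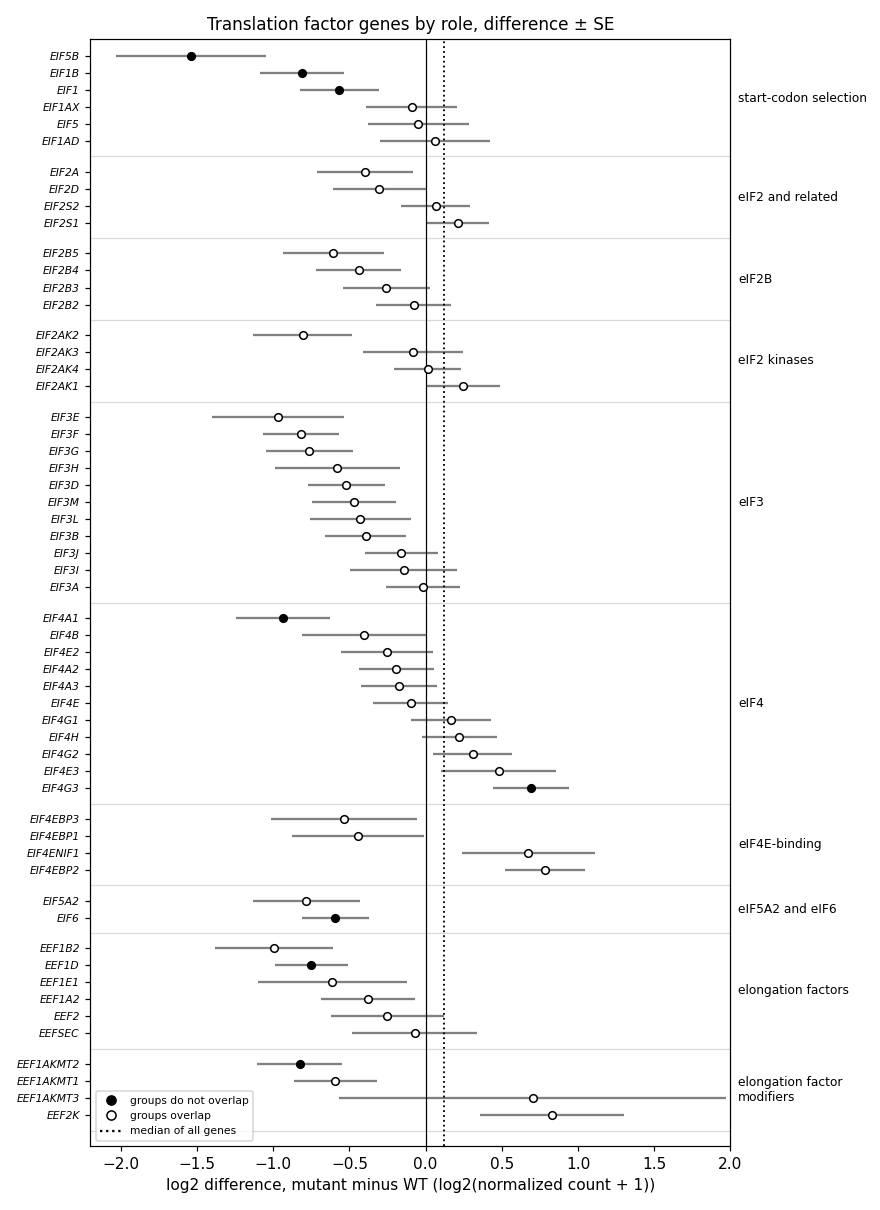
Log2 difference (mutant minus WT, on log2 of the normalized count plus 1) of each of the 56 members, grouped by role, with bars of 1 SE from limma (n = 4 libraries per group). Filled points mark the 8 members whose groups do not overlap, and the dotted line is the median of all genes tested, 0.12. Most points lie left of that line, and all 11 subunit genes of eIF3 lie left of 0.

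The libraries did not share this pattern evenly. The median over members of the log2 level, centred on each gene's mean, was -0.14, -0.08, -0.11 and -0.14 in mutant replicates 1 to 4, against -0.14, 0.22, 0.38 and 0.17 in WT replicates 1 to 4. WT replicate 1 thus sat among the mutant libraries, and the WT libraries spread far more widely (SD 0.22 against 0.03 in mutant libraries). WT replicate 3 held the highest value of 25 of the 56 members, and mutant replicate 1 the lowest of 18. Reads of EIF and EEF rows made up 1.59% ± 0.07 of non-mitochondrial reads in mutant and 1.93% ± 0.30 in WT libraries (SD, n = 4 each). WT replicate 3 had 54355 such reads and the other libraries 142830 to 265224, so values of this library rest on the fewest reads.

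**Figure D2:**
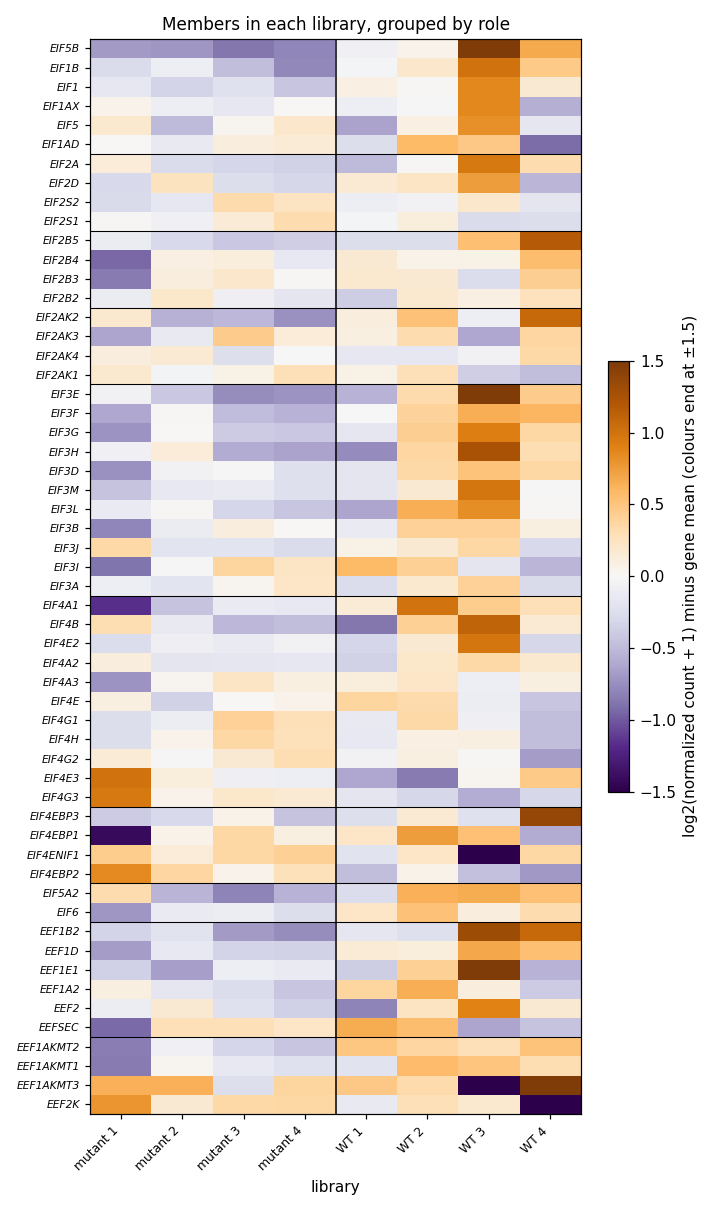
Centred log2 level of each member (rows, grouped by role in the same order as the difference plot) in each of the 8 libraries (columns, mutant left of WT). Orange is above and purple below the gene's own mean. WT replicate 3, where 25 members peak, stands out in the upper blocks, and WT replicate 1 is pale there.

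Among the factors that select the start codon and join the subunits, EIF5B differed most. It encodes the GTPase that joins the large subunit to the initiation complex. EIF5B measured 1544, 1519, 1356 and 1435 normalized counts in mutant replicates 1 to 4 and 2387, 2591, 13308 and 3968 in WT replicates 1 to 4. The mutant values lay in a narrow range below every WT value, and WT replicate 3 stood far above the rest. The log2 difference was -1.54 ± 0.49 (SE), with an adjusted p of 0.258 in limma, and leaving out WT replicate 3 gave -0.99, leaving out WT replicates 3 and 4 -0.77. The authors' deposited table gives -1.93 with an adjusted p of 0.0174. EIF1, which guards start-codon fidelity, had 6363, 5641, 6123 and 5272 normalized counts in mutant replicates 1 to 4, against 7548, 7173, 12935 and 7967 in WT replicates 1 to 4. Its near-identical copy EIF1B measured 605, 689, 526 and 426 normalized counts in mutant replicates 1 to 4 and 716, 837, 1463 and 1014 in WT replicates 1 to 4. In both genes all mutant values were under all WT values, with differences of -0.57 ± 0.26 (SE) and -0.81 ± 0.28 (SE). Without WT replicates 3 and 4 these were -0.33 and -0.48. Reads of the 2 copies may have been shared, which limits each value. EIF1AX, EIF5 and EIF1AD, which encode a scanning factor, the GTPase activator of eIF2 and a protein with an eIF1A-like domain, had differences of -0.09, -0.05 and 0.06 (adjusted p 0.894, 0.954 and 0.945 in limma), and their groups overlapped.

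The subunits of eIF2, which carries the initiator tRNA, were close between groups. EIF2S1, the subunit that the stress kinases phosphorylate, had 787, 738, 859 and 969 normalized counts in mutant replicates 1 to 4, against 761, 846, 639 and 651 in WT replicates 1 to 4. The groups overlapped and the difference was 0.21 ± 0.20 (SE). The β subunit gene EIF2S2 differed by 0.07 ± 0.23 (SE). EIF2A, a separate factor that can bind initiator tRNA, measured 1154, 865, 839 and 826 normalized counts in mutant replicates 1 to 4 and 738, 1062, 2035 and 1307 in WT replicates 1 to 4. Here mutant replicate 1 lay above 2 of the WT libraries. The difference of -0.40 ± 0.31 (SE) turned to 0.04 without WT replicates 3 and 4. EIF2D, a tRNA-binding factor of initiation and recycling, differed by -0.30 ± 0.31 (SE), or -0.11 without WT replicate 3. No member of this group had an adjusted p under 0.556 in limma.

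All 4 measured genes of eIF2B, the exchange factor that reloads eIF2 with GTP, had differences below 0, and none was at an unadjusted p under 0.05. EIF2B5, the catalytic ε subunit, had 533, 468, 431 and 446 normalized counts in mutant replicates 1 to 4, against 483, 483, 843 and 1311 in WT replicates 1 to 4. Only WT replicates 3 and 4 lay above the mutant range. Its difference was -0.61 ± 0.33 (SE), -0.31 without WT replicate 4 and -0.05 without those 2 libraries. EIF2B4, the δ subunit, measured 355, 724, 740.0 and 617 normalized counts in mutant replicates 1 to 4 and 770.0, 715, 717 and 1007 in WT replicates 1 to 4. Mutant replicate 1 was lowest and the other mutant libraries fell within or beside the WT range, giving -0.44 ± 0.28 (SE), or -0.20 without mutant replicate 1. EIF2B3 and EIF2B2 differed by -0.26 and -0.08, and EIF2B3 was at -0.020 without mutant replicate 1. The sign of EIF2B2 turned without WT replicates 3 and 4 (0.059).

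The 4 eIF2 kinase genes differed in direction, 2 lower and 2 higher. EIF2AK2 encodes PKR, which is activated by double-stranded RNA and is induced by interferon. EIF2AK2 had 363, 217, 224 and 191 normalized counts in mutant replicates 1 to 4, against 344, 460.4, 300.4 and 672 in WT replicates 1 to 4. Mutant replicates 2 to 4 lay below every WT library, whereas mutant replicate 1 lay within the WT range. The difference was -0.81 ± 0.32 (SE) (unadjusted p 0.0329, adjusted p 0.320 in limma). EIF2AK1, the heme-regulated kinase, measured 475, 407, 440.4 and 509.8 normalized counts in mutant replicates 1 to 4 and 440.2, 511, 325 and 301 in WT replicates 1 to 4. Its groups overlapped and its difference of 0.24 ± 0.24 (SE) turned to -0.06 without WT replicates 3 and 4. EIF2AK3 (PERK), the kinase of endoplasmic reticulum stress, and EIF2AK4 (GCN2), the sensor of uncharged tRNA, differed by -0.08 ± 0.33 (SE) and 0.01 ± 0.22 (SE). The sign of EIF2AK3 turned under 4 of 19 other settings and that of EIF2AK4 under 6.

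All 11 measured subunit genes of eIF3, the scaffold that holds the small subunit and recruits mRNA, had differences below 0, from -0.97 to -0.02 with a median of -0.47. Of these, 3 had an unadjusted p under 0.05 (27.3%, against 6.8% of all genes) and in none were the groups fully apart. EIF3F had 1395, 2169, 1527 and 1468 normalized counts in mutant replicates 1 to 4, against 2129.6, 2819, 3372 and 3245 in WT replicates 1 to 4. Mutant replicates 1, 3 and 4 lay below every WT library, and mutant replicate 2 just above WT replicate 1. The difference was -0.82 ± 0.25 (SE) (adjusted p 0.243 in limma), and the authors' deposited table gives -0.82 with an adjusted p of 0.0485. EIF3G, an RNA-binding subunit, measured 2126, 3537, 2669.9 and 2641 normalized counts in mutant replicates 1 to 4 and 3121, 4738, 6642 and 4494 in WT replicates 1 to 4. Only mutant replicate 2 crossed into the WT range, above WT replicate 1, and the difference was -0.76 ± 0.29 (SE). EIF3E had 3729, 2908, 2295 and 2349 normalized counts in mutant replicates 1 to 4, against 2645, 4880.5, 12625 and 5313 in WT replicates 1 to 4. WT replicate 3 was the highest library, and WT replicate 1 lay inside the mutant range. The difference was -0.97 ± 0.43 (SE), and leaving out WT replicate 3 gave -0.57, leaving out WT replicates 3 and 4 -0.38. EIF3H, EIF3D, EIF3M, EIF3L and EIF3B had differences of -0.58, -0.52, -0.47, -0.43 and -0.39 with overlapping groups. Without WT replicate 3, EIF3H was at -0.26, EIF3M at -0.22 and EIF3L at -0.22, and without mutant replicate 1 EIF3B was at -0.19. EIF3J, a loosely attached subunit, EIF3I and the core subunit EIF3A differed by -0.16 ± 0.24, -0.14 ± 0.35 and -0.02 ± 0.24 (SE). EIF3J was at -0.065 without WT replicate 3. The sign of EIF3I turned without mutant replicate 1 (0.13) or WT replicate 1 (0.025). That of EIF3A turned under 7 of 19 other settings. Without WT replicates 3 and 4, 10 of the 11 were still below 0 and the median was -0.34.

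The eIF4 group, which binds the cap and unwinds the leader, went in both directions, with 6 of 11 members lower and 5 higher. EIF4A1, a helicase of the cap complex, measured 1677, 2777, 3471 and 3403 normalized counts in mutant replicates 1 to 4 and 4176, 7467, 5116 and 4601 in WT replicates 1 to 4. All mutant values were under all WT values, and mutant replicate 1 was lowest. The difference was -0.93 ± 0.31 (SE) (adjusted p 0.270 in limma) and -1.04 without WT replicates 3 and 4. EIF4A2, its close paralog, had 10453, 8546, 8606 and 8633 normalized counts in mutant replicates 1 to 4, against 7603, 11129, 12223 and 10984 in WT replicates 1 to 4. These groups overlapped, and the difference was -0.19 ± 0.25 (SE), or 0.01 after quantile rescaling. EIF4G3, a paralog of the eIF4G1 scaffold, was the only member with every mutant library above every WT library. EIF4G3 measured 1809, 967, 1075 and 1042 normalized counts in mutant replicates 1 to 4 and 822, 751, 625 and 749 in WT replicates 1 to 4. Mutant replicate 1 was the highest and the other 3 mutant libraries lay close together, for a difference of 0.69 ± 0.25 (SE) (adjusted p 0.293 in limma). EIF4G1 itself had 3119.7, 3476, 4929 and 4544 normalized counts in mutant replicates 1 to 4, against 3393, 4730.2, 3537 and 2686 in WT replicates 1 to 4. Its groups overlapped, with a difference of 0.17 ± 0.26 (SE) that turned to -0.02 without WT replicates 3 and 4. EIF4G2, which lacks the eIF4E-binding site and had one of the 3 highest mean counts, measured 13114, 11668, 13281 and 14646 normalized counts in mutant replicates 1 to 4 and 11421, 12606, 11913 and 7370.3 in WT replicates 1 to 4. All but WT replicate 4 were close together, and the difference was 0.31 ± 0.26 (SE), or 0.13 without that library. The cap-binding protein gene EIF4E differed by -0.10 ± 0.25 (SE), and its relatives EIF4E2 and EIF4E3 by -0.26 and 0.48. EIF4E turned to 0.015 without WT replicate 1 and EIF4E2 to 0.028 without WT replicate 3. EIF4E3 was at 0.23 without mutant replicate 1. EIF4A3, the helicase of the exon junction complex, differed by -0.17, or 0.037 without mutant replicate 1. The helicase cofactor genes EIF4B and EIF4H differed by -0.40 and 0.22. Leaving out WT replicate 3 gave -0.10 for EIF4B, whose sign turned when WT replicate 4 was left out as well (0.027), and EIF4H was at 0.098 without WT replicate 4.

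**Figure D3:**
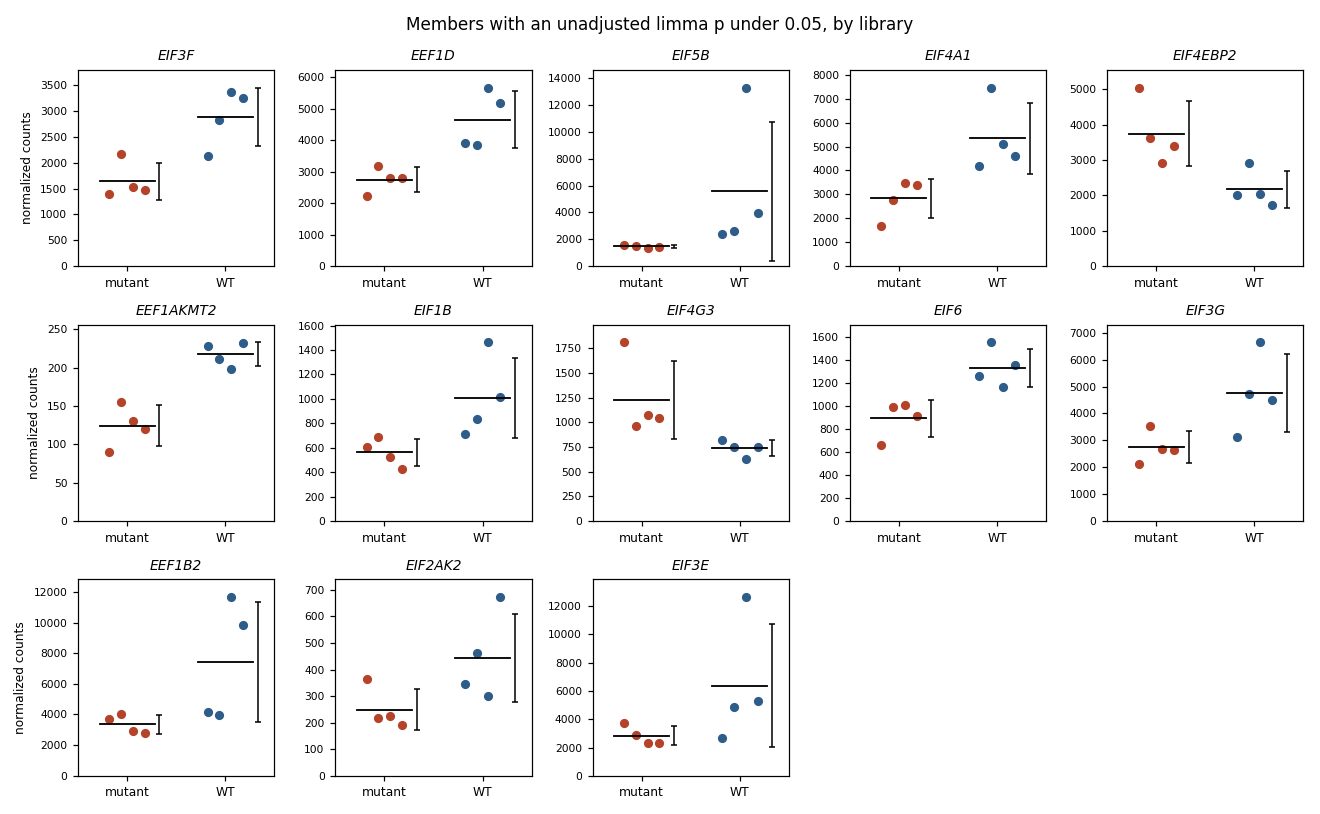
Normalized counts of the 13 members with an unadjusted limma p under 0.05, in mutant (left) and WT (right) libraries. Each point is a library, horizontal lines are means and bars are 1 SD (n = 4 each). EIF4EBP2 and EIF4G3 are the 2 members higher in mutant libraries. In EIF5B and EIF3E, WT replicate 3 is far above the others.

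Genes of proteins that bind eIF4E and keep it from eIF4G differed in direction. EIF4EBP2 had 5051, 3624, 2908 and 3396 normalized counts in mutant replicates 1 to 4, against 2018, 2929, 2029.9 and 1717 in WT replicates 1 to 4. Mutant replicate 3 lay just below WT replicate 2, and otherwise every mutant library was above every WT library. The difference was 0.78 ± 0.26 (SE) (unadjusted p 0.0146, adjusted p 0.273 in limma). EIF4EBP1, which mTORC1 phosphorylates to release eIF4E, measured 199, 554, 681 and 569 normalized counts in mutant replicates 1 to 4 and 616, 889.7, 765 and 351 in WT replicates 1 to 4. Mutant replicate 1 was far below the other 7 libraries, which overlapped, and the difference was -0.45 ± 0.43 (SE), or -0.05 without that library. EIF4EBP3 differed by -0.54 ± 0.48 (SE), or -0.17 without WT replicate 4. EIF4ENIF1, which carries eIF4E into the nucleus and to P-bodies, had 306, 247, 288 and 299 normalized counts in mutant replicates 1 to 4, against 195, 262, 67.8 and 288 in WT replicates 1 to 4. WT replicate 3 was the lowest and rested on 14 reads. The difference of 0.67 ± 0.44 (SE) was 0.21 without that library.

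EIF6 encodes the factor that keeps free large subunits from joining small ones too early. EIF6 measured 657, 993, 1003 and 908 normalized counts in mutant replicates 1 to 4 and 1257, 1551, 1168 and 1352 in WT replicates 1 to 4. No mutant value reached a WT value, and the difference was -0.59 ± 0.22 (SE) (adjusted p 0.303 in limma). EIF5A2, a hypusine-bearing paralog of the factor that helps ribosomes through proline runs, had 213, 118, 98.0 and 117 normalized counts in mutant replicates 1 to 4, against 142, 266, 271 and 247 in WT replicates 1 to 4. Mutant replicate 1 lay within the WT range and the other 3 mutant libraries below it, for a difference of -0.78 ± 0.35 (SE).

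All 6 genes grouped with the elongation factors had differences below 0, with a median of -0.50. EEF1D, an exchange factor that reloads eEF1A with GTP, measured 2219, 3185, 2800.0 and 2791 normalized counts in mutant replicates 1 to 4 and 3916, 3844, 5673 and 5167 in WT replicates 1 to 4. The groups did not overlap. The difference was -0.75 ± 0.24 (SE) (adjusted p 0.258 in limma), and the authors' deposited table gives -0.76 with an adjusted p of 0.0440. EEF1B2, the other catalytic subunit of that complex, had 3708, 4046, 2896 and 2770.4 normalized counts in mutant replicates 1 to 4, against 4164, 3996, 11651 and 9809 in WT replicates 1 to 4. WT replicates 3 and 4 were far above all other libraries, and WT replicates 1 and 2 stood beside the top of the mutant range. The difference was -0.995 ± 0.39 (SE), and -0.30 without WT replicates 3 and 4. EEF1A2, the eEF1A form of adult heart, skeletal muscle and neurons, had the highest mean count of the members. EEF1A2 measured 35968, 29650.0, 27908 and 24933 normalized counts in mutant replicates 1 to 4 and 43551, 52644, 36179 and 25492 in WT replicates 1 to 4. The groups overlapped, WT replicate 4 lying near the lowest mutant value, and the difference was -0.38 ± 0.31 (SE) (adjusted p 0.569 in limma). This difference shrank to -0.22 once the highest library, WT replicate 2, was dropped, and to -0.23 after quantile rescaling. Dropping WT replicate 4 enlarged it to -0.57, and dropping both WT replicates 3 and 4 enlarged it to -0.71. EEF2, the translocase that EEF2K phosphorylates, had 26832, 32508, 24826 and 22421 normalized counts in mutant replicates 1 to 4, against 16531, 33930.2, 53648 and 32369 in WT replicates 1 to 4. WT replicate 1 was the lowest of all libraries and WT replicate 3 the highest. The difference was -0.25 ± 0.37 (SE), and its sign turned when WT replicate 3 was left out (0.01) or WT replicates 3 and 4 were (0.16). EEF1E1, whose product is part of the multi-tRNA synthetase complex, differed by -0.61 ± 0.49 (SE), or -0.14 without WT replicate 3. The selenocysteine elongation factor gene EEFSEC differed by -0.07 ± 0.41 (SE). The sign of EEFSEC turned without WT replicate 1 (0.13), WT replicate 2 (0.10) or mutant replicate 1 (0.23).

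Among genes that modify elongation factors, EEF1AKMT2, a lysine methyltransferase of eEF1A, measured 90.4, 156, 130.1 and 121 normalized counts in mutant replicates 1 to 4 and 229, 211, 199 and 232 in WT replicates 1 to 4. Here too the groups did not overlap. The difference was -0.83 ± 0.28 (SE) and -0.84 without WT replicates 3 and 4 (adjusted p with all libraries 0.273 in limma). EEF1AKMT1, another methyltransferase of eEF1A, had 392, 723, 639 and 610.5 normalized counts in mutant replicates 1 to 4, against 616, 1052, 1003 and 881 in WT replicates 1 to 4. WT replicate 1 fell within the mutant range, and the difference was -0.59 ± 0.27 (SE). EEF2K, the kinase that inhibits eEF2, had 639 to 983 normalized counts in mutant libraries and 142 to 695 in WT libraries. Its difference was 0.83 ± 0.47 (SE), or 0.30 without WT replicate 4, the lowest library. EEF1AKMT3 was the only member with a library at 0 reads, WT replicate 3, where 0 reads allow a true value of up to 3, equal to 14.5 normalized counts. It had 16.4 to 31.2 normalized counts in mutant and 25.1 to 91.0 in the other WT libraries. The difference was 0.70 ± 1.27 (SE) in limma, and -0.64 without WT replicate 3. With all libraries it was also below 0 in DESeq2 (-0.50), in edgeR (-0.51) and after quantile rescaling (-0.54).

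Of the members whose mRNAs carry a TOP tract in human cells, 8 were measured (EEF1A2, EEF1B2, EEF1D, EEF2, EIF3E, EIF3F, EIF3H and EIF4B). All 8 were below 0, with a median of -0.66, 4 were at an unadjusted p under 0.05 (50% against 6.8% of all genes) and 1 had groups that did not overlap (12.5% against 5.22%). These 8 are also counted in the role groups above. The list was chosen with earlier results of these data known, so its shares are a description only. In the same fit the 54 cytosolic ribosomal protein genes had a median of -0.93 with 54 of 54 below 0. The members' own median of -0.28 lay between that and the 0.12 of all genes, and the difference between these sets was not tested. Without WT replicates 3 and 4 the medians were -0.34 for the TOP members, 6 of 8 being below 0, and -0.61 for ribosomal protein genes. The median centred level of the TOP members was -0.08, -0.14, -0.50 and -0.51 in mutant replicates 1 to 4, against -0.36, 0.35, 1.00 and 0.38 in WT replicates 1 to 4, so WT replicate 1 again lay in the mutant range.

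Paralogs were also compared as ratios within a library, which do not depend on the size factor. Of 6 pairs listed, 4 had both genes measured, and the smallest exact two-sided permutation p that 70 assignments allow is 0.0286. EIF4A1 relative to EIF4A2 had log2 ratios of -2.64, -1.62, -1.31 and -1.34 in mutant replicates 1 to 4, against -0.86, -0.58, -1.26 and -1.26 in WT replicates 1 to 4. Every mutant ratio was below every WT ratio, by a narrow margin between mutant replicates 3 and 4 and WT replicates 3 and 4. The mean was -1.73 ± 0.62 in mutant and -0.99 ± 0.33 in WT libraries, a difference of -0.74 (SD, n = 4 each; exact permutation p = 0.0286, and 0.114 adjusted over 4 pairs), or -0.44 without mutant replicate 1. EIF4EBP1 relative to EIF4EBP2 was -3.01 ± 1.13 in mutant and -1.78 ± 0.37 in WT libraries, a difference of -1.23 (SD, n = 4 each; exact permutation p = 0.0571, adjusted 0.114). Its 4 mutant ratios were -4.66, -2.71, -2.09 and -2.57 and its 4 WT ratios -1.71, -1.72, -1.41 and -2.29, and only mutant replicate 3 overlapped with the WT libraries. Without mutant replicate 1 the difference was -0.68. EIF1 relative to EIF1B was 3.40 ± 0.26 in mutant and 3.15 ± 0.18 in WT libraries, a difference of 0.24 (SD, n = 4 each; exact permutation p = 0.20, adjusted 0.257). EIF4G1 relative to EIF4G3 was 1.74 ± 0.65 in mutant and 2.26 ± 0.38 in WT libraries, a difference of -0.52 (SD, n = 4 each; exact permutation p = 0.257, adjusted 0.257), and -0.20 without mutant replicate 1. No pair passed after adjustment, and a pair that stands alone cannot go below an adjusted p of 0.114 in this design.

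**Figure D4:**
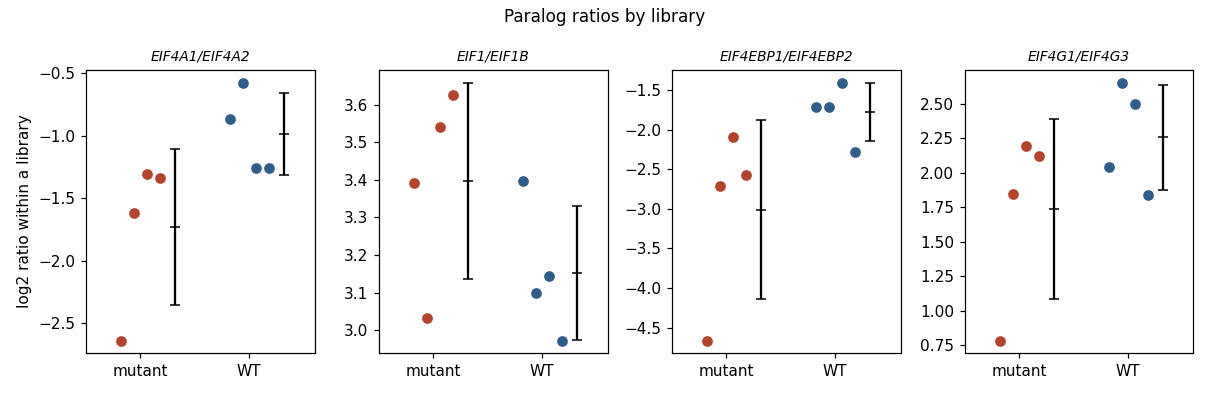
Log2 ratio of the first to the second gene of 4 paralog pairs in each library, mutant left and WT right (points are libraries, bars are the mean and 1 SD, n = 4 each). The vertical axes differ between panels and do not start at 0. The groups are apart only for EIF4A1 to EIF4A2, where mutant replicate 1 at -2.64 is farthest from the WT libraries.

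Of the genes around the factors, 45 were listed and 44 measured, and 0 passed limma (24 lower and 20 higher, median -0.09). In each list the named genes were picked by smallest p, not by size of difference. Among 14 genes of mTORC1 signalling and initiation kinases, 10 were lower and 4 higher, with differences from -0.81 to 2.68. MTOR, the kinase itself, measured 1087, 1259, 1336 and 1430.2 normalized counts in mutant replicates 1 to 4 and 742, 801, 484 and 536 in WT replicates 1 to 4. Every mutant library lay above every WT library, and the difference was 1.02 ± 0.23 (SE) (adjusted p 0.197 in limma; the authors' deposited table gives 0.99 with an adjusted p of 0.00836). RPS6KB2, a kinase of ribosomal protein S6 downstream of mTORC1, had 172, 293, 231 and 229 normalized counts in mutant replicates 1 to 4, against 319, 365, 334 and 654 in WT replicates 1 to 4. Its groups did not overlap either, in the other direction, and the difference was -0.81 ± 0.30 (SE). Of 4 genes of the integrated stress response 3 were lower, among them ATF4, the transcription factor translated when eIF2 is phosphorylated. ATF4 measured 2222, 1836, 2916 and 2379 normalized counts in mutant replicates 1 to 4 and 2355, 6009, 9277 and 11157 in WT replicates 1 to 4. The groups overlapped and the difference was -1.42 ± 0.45 (SE), or -0.71 without WT replicates 3 and 4 (adjusted p with all libraries 0.258 in limma; the authors' deposited table gives -1.62 with an adjusted p of 0.0168). DDIT3, a target of ATF4, differed by -0.86 ± 0.42 (SE), or -0.53 without WT replicate 4. All 6 genes of mitochondrial translation factors were higher in mutant libraries, while 56.9% of all genes were higher. Differences of the 6 ran from 0.12 to 3.02, with a median of 0.54. In 3 of the 6 every mutant library lay above every WT library, against 6.17% of all genes. GFM1, the mitochondrial elongation factor G, had 1660.3, 1160.3, 1421 and 1589 normalized counts in mutant replicates 1 to 4, against 1002, 602, 688 and 211 in WT replicates 1 to 4. MTIF2, the mitochondrial initiation factor, measured 362, 393, 398 and 405 normalized counts in mutant replicates 1 to 4 and 245, 225, 339 and 251 in WT replicates 1 to 4. Both were fully apart, with differences of 1.41 ± 0.43 (SE) and 0.57 ± 0.22 (SE) (adjusted p 0.246 and 0.317 in limma), and that of GFM1 was 0.89 without WT replicates 3 and 4. The poly(A)-binding protein gene PABPC1 and its translation inhibitor PAIP2B differed by -0.45 and 0.43, and PAIP2B was at 0.16 without WT replicate 3. The termination factor gene GSPT1 and the ribosome rescue gene PELO differed by 0.38 and -0.76, and PELO was at -0.39 without WT replicate 4. Of 9 genes of hypusine and diphthamide synthesis, the modifications of eIF5A and eEF2, 5 were higher and 4 lower. Differences in this list ran from -0.60 to 1.73, and 1 gene had every mutant library above every WT library (6.17% of all genes). DPH6 was at 0.50 and DPH7 at -0.60. Without WT replicate 4 DPH7 was at -0.23, and without mutant replicate 1 DPH6 was at 0.29.

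**Figure D5:**
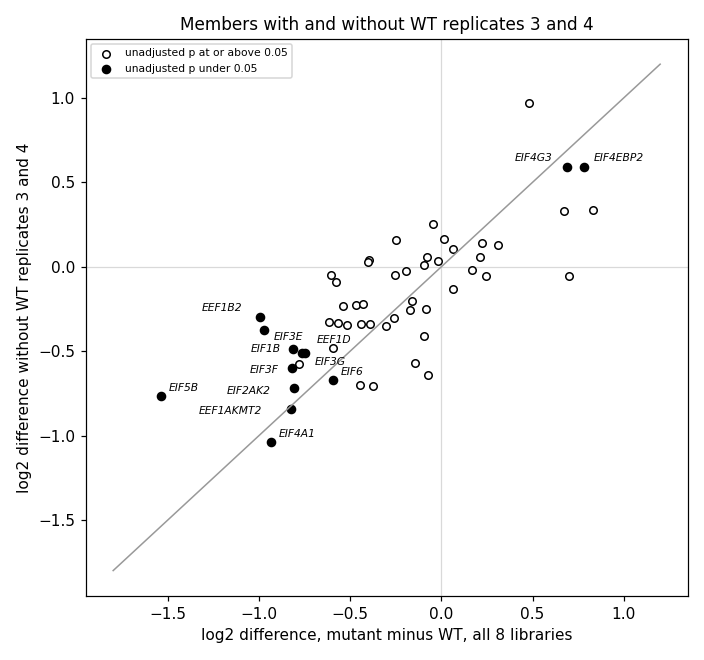
Log2 difference (mutant minus WT) of each of the 56 members with all 8 libraries (horizontal) and without WT replicates 3 and 4 (vertical). Filled points are the 13 members with an unadjusted limma p under 0.05, and the line marks equal values. EIF4A1, EEF1AKMT2 and EIF6 lie on or near the line, while EIF5B, EEF1B2 and EIF3E lie closer to 0 on the vertical axis.

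The members' differences also varied with the libraries in the fit. Without WT replicates 3 and 4, 39 of 56 members were below 0 (median -0.23, and 0.01 over all genes). In that fit 8 members had an unadjusted p under 0.05, or 14.3% against 16% of all genes, and 6 of these were among the 13. Of those 13, 4 moved by over 1.5 times on the log2 scale, namely EIF5B, EIF1B, EEF1B2 and EIF3E. The 13 kept their sign under all 19 other settings, whereas 20 of the other 43 members turned sign under at least 1 of them. When single libraries were left out in turn, 2 of the 13 (EIF5B and EIF3E) and 40 of the other 43 turned sign or changed by over 1.5 times at least once. Both contrasts follow in part from picking the 13 by p in the same libraries, so they are no independent check of these members. Without WT replicates 3 and 4, all mutant values were under those of the 2 remaining WT libraries in 11 members, or 19.6% against 14% of all genes.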

How the data were processed

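One row per gene symbol is given in the deposited table, which covers 8 poly(A)-selected, random-primed libraries of left ventricle (per the labels' protocols). Its per-library columns are a signal, the normalized count, which the authors obtained by dividing reads by a size factor, per the file headers and the submitters' processing notes, which name DESeq2 with no version and the human build GRCh38. Nothing is known of the aligner, the counter, the annotation or any use of strand (not given in the sources used here). For this reason coordinates are not printed, reads of overlapping or near-identical genes could not be told apart, and counts were not corrected for transcript length. The log2 fold change, its standard error, the Wald score, the p-value and the adjusted p-value in the table are the authors' own, per the file headers.

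All values were whole multiples of 1 read (tolerance 1e-06), so reads were recovered. Of 14720 rows, 2 named for annotation sources (0.392% to 0.853% of reads) were left out. All 58 EIF and EEF symbols matched the pig reference tables. Genes with at least 10 normalized counts in at least 4 libraries were taken as log2(normalized count + 1) and fitted across the whole table with limma 3.58.1 (trended, robust prior, R 4.3.3), with Benjamini-Hochberg adjustment and a threshold of 0.05; the scale understates changes of low genes. The scripts were tested on simulated data. Paralog ratios were tested by exact two-sided permutation. Alternatives were DESeq2 1.42.0 and edgeR 4.0.16 on recovered reads, rescaling by quantiles or TMM, a pseudocount of 0.5 or 5, no filter or a minimum of 100, a plain prior, array quality weights, and leaving out libraries. Named genes follow a rule: the 2 members with the smallest p in each role group and among TOP members, and the 3 highest means. The rule adds the paralogs, members called in the authors' deposited table, and up to 2 genes with the smallest p per neighbouring pathway list. EIF3E is outside this rule, but its library values are given as well. Other members are given more briefly. Members, roles and lists were chosen with earlier results of these data known.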

Additional observations from a re-analysis of the deposited data

Results flagged for a closer look

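In 9 of 80 gene-by-group checks 1 library lay far from the other 3 of its group, by Dixon's criterion for groups of 4. Chance gives about 1 in 20 for independent, normally distributed values. These checks used counts without a log scale, of genes partly picked by p in the same libraries. The 9 of 80 therefore cannot be read as an excess. In WT replicate 3, EIF5B had 13308 normalized counts against 2387 to 3968 in the other WT libraries, and EIF1 had 12935 against 7173 to 7967. In mutant replicate 1, EIF4G3 had 1809 against 967 to 1075 in the other mutant libraries, EIF4A2 had 10453 against 8546 to 8633, and EIF2A had 1154 against 826 to 865. The same library was low for KCNH2, at 798 against 1751 to 1839. In WT replicate 4, PELO had 1268 against 429.9 to 485 in the other WT libraries, RPS6KB2 had 654 against 319 to 365, and DPH7 had 391 against 131 to 157.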

How the results depend on the processing

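The count of genes called was 0 in limma, 578 in DESeq2, 0 in edgeR, 3 after quantile rescaling, 92 with array quality weights, 12 without WT replicates 3 and 4 together, and 0 to 3 when single libraries were left out. Members called numbered 0 under every setting except DESeq2, which called 3. Members lower at an unadjusted p under 0.05 numbered 11 (19.6%, against 6.8% of all genes), and 7 without WT replicates 3 and 4 together (12.5% against 7.46%). Leaving out single libraries gave 5 without mutant replicate 4 (8.93% against 4.24%) to 18 without WT replicate 1 (32.1% against 8.87%), with 7 without mutant replicate 3 (12.5% against 4.73%). Members higher numbered 2 (3.57% against 7.06%), and 1 with array quality weights (1.79% against 10.2%) or without WT replicates 3 and 4 together (1.79% against 8.54%). All mutant values were under all WT values in 7 members (12.5%, against 5.22% of all genes), in 11 without WT replicates 3 and 4 together (19.6% against 14%) and in 7 to 17 with single libraries left out, the highest without WT replicate 1 (30.4% against 9.31%). They were above all WT values in 1 member (1.79% against 6.17%), in 2 without WT replicates 3 and 4 together (3.57% against 15.2%) and in 1 to 4 with single libraries left out, the highest without mutant replicate 2 (7.14% against 8.73%). These overlap counts were added after seeing the data. The members' median ranged from -0.37 to -0.19 over the 19 alternatives. Paralog ratios kept their direction. Their adjusted p values say nothing on stability, since a pair that stands alone cannot go below 0.114 with all libraries or 0.267 without WT replicates 3 and 4. Of the 56 members 20 turned sign under at least 1 of the 19 alternatives. None of them was among the 13 at an unadjusted p under 0.05, which were picked by p in the same libraries. Among the members named by the rule, 5 did: signs turned for EEF2 (0.16), EIF2A (0.043), EIF2AK1 (-0.056) and EIF4G1 (-0.021) without WT replicates 3 and 4 together, for EIF4A2 (0.0064) after quantile rescaling, and for EEF2 with single libraries left out (-0.56 to 0.0062). The cause was not tested. No paired analysis was possible because the labels give no replicate numbers shared between groups. Depth limits WT replicate 3 most, where 1 read equals 4.84 normalized counts.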
